A study of Drosophila melanogaster with 12 samples.

Results

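Drosophila eye discs that expressed activated Ras together with EP3037, an insertion whose sample title says that the long noncoding RNA hsrω is raised, were compared with eye discs that expressed activated Ras without it. The genes described are those with at least 1 FPKM (fragments per kilobase of transcript scaled to the number of mapped fragments) in both groups and a completed Cuffdiff test, 9052 of 15904 gene rows in the authors' deposited table. A completed test alone was recorded for 11062 rows. For each gene the log2 ratio of the EP3037 group over the Ras group was taken, so that a negative value means a lower level with EP3037.

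Total RNA of eye discs, dissected from wandering larvae of the third instar, was sequenced in 12 samples that form 4 groups of 3, and each preparation pooled 30 pairs of discs. All larvae were w1118 and carried sev-GAL4 over UAS-GFP. The Ras group also had UAS-RasV12 and dco2, the EP3037 group had EP3037 and UAS-RasV12, and levels in the control (with dco2, no RasV12) and in the group with UAS-hsrωRNAi and UAS-RasV12 are given beside them. The RNAi value pools 4 inputs for 3 samples, since its label in the deposited table lists 1 sample as a pair of inputs. Because dco2 is listed in the Ras genotype and not in the EP3037 genotype, its absence cannot be told apart from EP3037. The authors pooled the samples of a group into 1 FPKM value, so no SD, n or sample count stands beside a level, and depth is unknown. The labels do not say whether the 3 samples came from separate crosses. The p-values therefore cover at most the spread of these samples as Cuffdiff modelled it, part or all of which may be technical.

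The sev-GAL4 driver is active in sevenless-expressing cells of the differentiating eye field, which include the R7 photoreceptor precursor and cone cell precursors, so the transgenes act in a subset of the cells that were sequenced. Ras relays the Sevenless and EGF receptor signals that recruit photoreceptors, and RasV12 does so without a ligand. The hsrω gene is transcribed into noncoding RNAs that organise omega speckles, nuclear bodies in which hnRNPs and other RNA-processing proteins are stored.

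Most of the genes that passed the test were lower in discs with EP3037 than in Ras discs. The larval cuticle protein gene Lcp4 fell 4.76-fold, Thor, which encodes the translation inhibitor 4E-BP, fell 4.33-fold, and the steroid enzyme genes phm, spok and nvd, which act in ecdysone synthesis, fell 2.97-fold, 2.56-fold and 2.32-fold. The Polycomb group gene Psc and the Brahma complex gene Bap170 fell 1.69-fold and 1.88-fold. The haemocyte genes Hml and Pxn rose, and the midgut protease genes Jon65Aiv and yip7, under 1 FPKM in Ras discs, reached 27.0 and 24.5 FPKM. A gene is called here, and said to have risen or fallen, when its q-value in the authors' deposited table was at or under 0.05.

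Of the 9052 genes, 67 were called (0.740%), 12 of them higher (0.133%) and 55 lower (0.608%). The log2 ratios of the called falls ran from -0.74 to -2.25, and those of the called rises from 0.74 to 2.71. Most genes differed little, with 6707 (74.1%) within 1.25-fold. The median log2 ratio was -0.06, and 5420 genes (59.9%) were lower with EP3037. An unadjusted p of 0.05 or less was reached by 416 lower genes (4.60%) and 109 higher genes (1.20%). The counts given for each list below are to be read beside these shares. A ratio of 2-fold or more was reached by 85 higher genes (0.939%) and 151 lower genes (1.67%), but only 7 and 27 of these were called. That excess of lower genes depended on scaling: it was 107 higher and 118 lower with the trend over genomic span subtracted, and turned to 108 higher and 83 lower with the trend over transcript length subtracted, which used only annotated genes (81 higher and 136 lower before the subtraction). Of the genes past 2-fold, 67 higher and 62 lower ones had under 5 FPKM in one of the groups, and 29 and 69 were annotated as noncoding. The lowest level that let a gene in was 1.00055 FPKM and the highest that kept one out was 0.999776 FPKM.

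**Figure D1:**
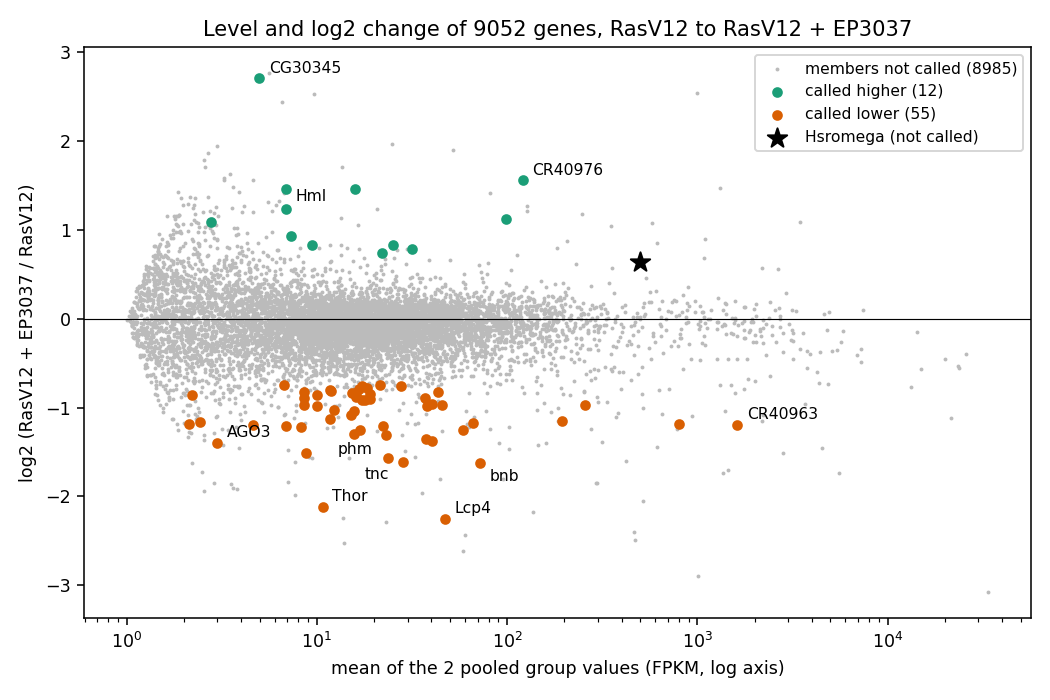
Log2 ratio of the EP3037 group over the Ras group (y axis) against the mean of the 2 pooled FPKM values (x axis, log scale) for 9052 genes, with called rises, called falls and Hsromega marked. The 55 called falls lie at log2 -0.74 or below, while many genes at low levels have larger ratios without a call.

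The genes named in the genotypes were read first. Hsromega (chromosome 3R, 21296127 to 21317836, plus strand, noncoding), the hsrω gene, was at 543 FPKM in control discs, 389 in Ras discs, 398 in the discs labelled hsrω RNAi and 606 in EP3037 discs. The EP3037 value was the highest of the 4, but the log2 ratio of 0.64 over Ras was not called (p = 0.486 from the authors' deposited table), so a rise of hsrω in whole discs is not shown by these data. Ras85D was at 121 FPKM in the Ras group and 142 in the EP3037 group (p = 0.260 from the authors' deposited table), with reads of the transgene and of the endogenous gene counted alike where both match. The receptor gene sev was at 28.4 and 28.99 FPKM (p = 0.887 from the authors' deposited table). The casein kinase gene dco, whose allele differs between the genotypes, was at 40.9 and 40.4 FPKM (p = 0.928 from the authors' deposited table). The row CG32795,w holds the pigment transporter gene white, which is also a common marker on transgenes. It was at 53.4 FPKM in control discs, 59.7 in Ras discs, 87.0 in RNAi discs and 86.3 in the EP3037 group (p = 0.263 from the authors' deposited table). That row overlaps 22 others, so its level is uncertain.

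EP elements can drive a neighbouring gene, so the rows that start within 50000 nt of Hsromega were read next, 9 in all without Hsromega itself. None was called, against 0.786% of all rows with a completed test. AP-2sigma, a clathrin adaptor subunit, was the only one with an unadjusted p of 0.05 or less, 0.0360 in the authors' deposited table, at 33.4 FPKM in Ras and 23.2 with EP3037. Rab1, a small GTPase of transport from the endoplasmic reticulum to the Golgi, was at 130.4 and 139.6 FPKM, and CG16791 at 37.6 and 32.5. Of these 9 rows, ETHR and CG3301 were under 1 FPKM in both groups, and SIFaR and CG17298 were not tested.

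The tissue label was checked against genes that define the eye field. In the Ras and EP3037 groups the retinal determination gene so was at 53.1 and 54.1 FPKM, eya at 128 and 134, dac at 53.3 and 57.4, and the photoreceptor differentiation gene gl at 47.0 and 44.1. The rhodopsin gene ninaE, which is turned on in the pupa, was at 0.229 and 0.297 FPKM and was not tested. Of 12 retinal determination genes, 0 were called by Cuffdiff, 2 were lower at an unadjusted p of 0.05 or less, and their median log2 ratio was -0.14. The antennal gene Dll was at 42.2 and 36.5 FPKM, so the discs held antennal tissue as well. Of 12 antennal and peripodial markers, 0 were called and 0 had an unadjusted p of 0.05 or less, with a median of -0.09 and a summed level of 597 FPKM in Ras and 559 with EP3037.

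Ecdysone synthesis had 4 called genes, the most of any of the 41 lists. Ecdysone is made from dietary sterol in the prothoracic cells of the ring gland, next to the brain, by the enzymes of nvd, spok, sro, phm, dib and sad, among others. Of 19 genes of the list, 4 fell and 0 rose, 16 were lower, and the median log2 ratio was -0.44 beside -0.06 over all genes. The list holds regulators and sterol carriers as well as enzymes.

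The hydroxylase gene phm (chromosome X, 18685766 to 18688433, plus strand) was at 28.4 FPKM in control discs, 35.5 in Ras discs, 18.0 in RNAi discs and 12.0 in the EP3037 group. The cytochrome P450 gene spok (chromosome 3R, 3322810 to 3354486, plus strand) was at 42.0, 53.9, 15.0 and 21.0 FPKM in these groups in turn. The Rieske oxygenase gene nvd (chromosome 3L, 24324866 to 24401655, plus strand), which acts in the first step, was at 6.90, 9.63, 2.93 and 4.16 FPKM. In phm, spok and nvd the Ras group had the highest value of the 4, and both groups with an altered hsrω label lay below the control. The POU-domain factor gene vvl, which activates these enzyme genes in the prothoracic cells, fell 2.28-fold, with 2.76 FPKM in control discs, 2.97 in Ras discs, 2.22 in RNAi discs and 1.30 in the EP3037 group. The q-values in the authors' deposited table were 0.00789 for phm and spok, 0.0192 for nvd and 0.0325 for vvl.

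The hydroxylase gene sad was at 30.8, 42.8, 20.2 and 15.2 FPKM in these groups in turn, a log2 ratio of -1.49 beside -1.36 for spok, but its p-value of 0.00140 in the authors' deposited table did not give a call (q = 0.0991). The sterol-binding protein gene Start1 was at 19.3 FPKM in Ras and 11.9 with EP3037 (p = 0.00545 from the authors' deposited table, not called). The remaining enzymes had smaller ratios. The gene sro was at 12.0 and 7.73 FPKM (p = 0.235 from the authors' deposited table), dib at 2.98 and 2.59 (p = 0.825 from the authors' deposited table) and spo at 1.65 and 1.81. The gene shd, whose enzyme makes the final step in peripheral tissue, was under 1 FPKM in both. The 8 enzyme genes nvd, spok, spo, sro, phm, dib, sad and shd summed to 124 FPKM in control discs, 159 in Ras discs, 68.1 in RNAi discs and 65.0 with EP3037, and none was at 0 in any group. In bulk tissue, fewer cells of a type and less RNA per cell cannot be told apart, and these genes are themselves the markers of ring gland tissue. Whether the amount of attached ring gland differed between preparations was not tested. Akh, a hormone gene of the ring gland's corpora cardiaca, was at 4.01 FPKM in Ras and 1.86 with EP3037 (p = 0.109 from the authors' deposited table, not called). It was at 6.93 FPKM in control discs and 2.05 in RNAi discs. Its highest value was thus in the control, unlike phm, spok, nvd and sad, which were highest in Ras.

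**Figure D2:**
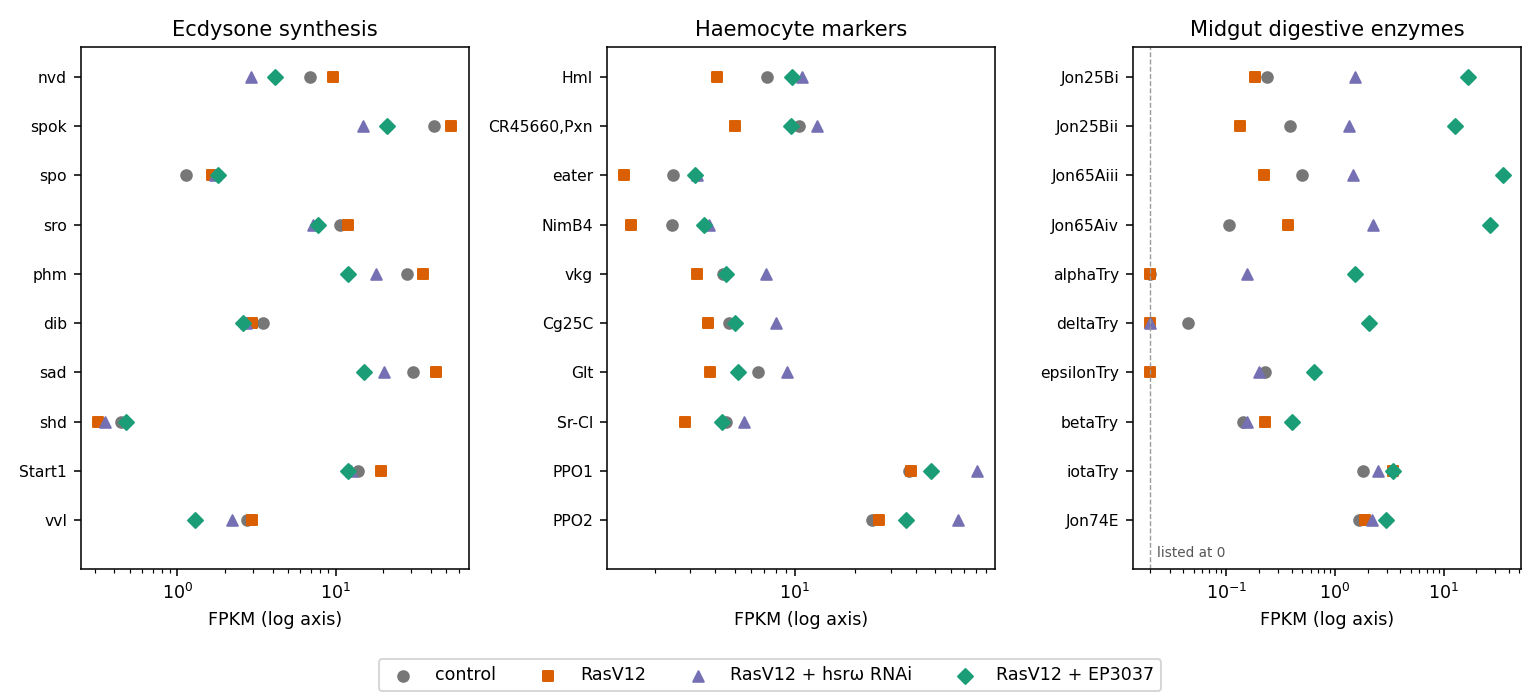
Pooled FPKM (x axis, log scale) in the 4 groups for 10 genes of each of 3 lists, ecdysone synthesis, haemocyte markers and midgut digestive enzymes, with values of 0 drawn on the dashed line; the genes shown were chosen after their values were seen. phm, spok, nvd and sad are highest in the Ras group, the haemocyte genes Hml, eater and NimB4 are lowest there, and 4 Jon proteases stand apart in the EP3037 group.

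Genes that respond to ecdysone included 2 that fell and 0 that rose of 32, with 26 lower and a median log2 ratio of -0.22. Blimp-1, an ecdysone-induced repressor that times the onset of ftz-f1, was at 12.99 FPKM in control discs, 31.04 in Ras discs, 32.9 in RNAi discs and 13.4 in the EP3037 group, and fell 2.31-fold (q = 0.00789 in the authors' deposited table). The row CG12912,Hr46, which holds the ecdysone-induced receptor gene DHR3, was at 7.92, 22.4, 18.1 and 9.08 FPKM and fell 2.47-fold (q = 0.0284 in the authors' deposited table). For Blimp-1 and this row the EP3037 value was close to the control, and the Ras and RNAi values stood above both. At an unadjusted p of 0.05 or less, a level reached by 4.60% of all genes in the lower direction and 1.20% in the higher, 7 of the 32 were lower and 1 was higher. ImpE2, an ecdysone-induced gene of imaginal discs, was at 991 FPKM in control discs, 1282 in Ras discs, 873 in RNAi discs and 603 with EP3037, but was not called (p = 0.00155 from the authors' deposited table). The transcription factor gene br was at 397 FPKM in Ras and 207 with EP3037 (p = 0.0296 from the authors' deposited table, not called). The receptor gene EcR was at 57.1 and 67.8 FPKM and its partner, in the row Actn,usp, at 70.4 and 65.6, and neither was called.

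Most cuticle and apical matrix genes stood lower with EP3037, as did 59.9% of all genes. Lcp4 (chromosome 2R, 8437647 to 8438495, plus strand) was at 8.51 FPKM in control discs, 77.9 in Ras discs, 2.83 in RNAi discs and 16.4 with EP3037, so the Ras group alone was high, and its q was 0.00789 in the authors' deposited table. It was the only called gene of 40 cuticle proteins, of which 31 were lower, with a median log2 ratio of -0.32. At an unadjusted p of 0.05 or less, 9 cuticle genes were lower and 2 higher, beside 4.60% and 1.20% of all genes. Lcp1, another larval cuticle gene, was at 4.33, 13.6, 1.20 and 4.62 FPKM in the 4 groups (p = 0.00685 from the authors' deposited table, not called). Cuticle genes under 1 FPKM in either group are not among the 40. Lcp65Ag3 was at 0.104 FPKM in control discs, 7.57 in Ras discs, 0.0373 in RNAi discs and listed at 0 with EP3037, and was called lower (q = 0.00789 in the authors' deposited table). TwdlN, a Tweedle-family cuticle gene named after its values were seen, was at 2.13 FPKM in Ras and listed at 0 with EP3037, and was also called.

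In the matrix lists, tnc, which encodes the extracellular integrin ligand tenectin, fell 3.05-fold. Its level was 16.1 FPKM in control discs, 42.9 in Ras discs, 40.9 in RNAi discs and 14.1 with EP3037 (q = 0.00789 in the authors' deposited table). The row CR45660,Pxn, described with the haemocyte genes, rose in the same list of 33 basement membrane and adhesion genes, whose median log2 ratio was -0.02. Among 26 apical matrix and chitin genes 0 were called, but 23 were lower, with a median of -0.25, and 6 of them had an unadjusted p of 0.05 or less, 0 being higher at that level. The chitinase gene Cht5 was at 4.84 FPKM in Ras and 2.85 with EP3037, and dp, a giant apical matrix protein gene, at 29.5 and 16.9 FPKM, neither of them called. The serine protease gene Np, which acts on apical matrix, fell 2.33-fold, from 11.6 to 4.98 FPKM (q = 0.00789 in the authors' deposited table).

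Thor (chromosome 2L, 3478434 to 3479612, plus strand), a FoxO target and inhibitor of eIF4E, was at 8.85 FPKM in control discs, 17.4 in Ras discs, 12.98 in RNAi discs and 4.02 with EP3037 (q = 0.00789 in the authors' deposited table). The EP3037 level was the lowest of the 4, below the control. It was the only called gene of 40 in the insulin, TOR and FoxO list, whose median log2 ratio was -0.08. The insulin-binding receptor decoy gene Sdr was at 6.83 FPKM in Ras and 10.1 with EP3037, and the TOR inhibitor gene gig (Tsc2) at 8.91 and 6.04, with neither called.

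The gene bnb, expressed in glia, fell 3.09-fold from 109 FPKM in Ras to 35.1 with EP3037, beside 43.9 in the control and 144 in the RNAi group (q = 0.00789 in the authors' deposited table). Its row overlaps 3 others, so some of these reads may belong to them. It was the only called gene of 23 glial genes, whose median was 0.09, and the glial gene nrv2 was at 88.8 FPKM in Ras and 115.5 with EP3037 without being called. Dscam1, an immunoglobulin receptor that gives neurites their identity, fell 1.86-fold from 11.2 to 6.003 FPKM (q = 0.00789 in the authors' deposited table) and was the only called gene of 41 neuronal genes, with a median of -0.16 (-0.13 over the 36 with an annotated transcript, and 0.089 over the same 36 with the transcript-length trend subtracted). AGO3, an Argonaute of the piRNA pathway, fell 2.63-fold from 4.31 to 1.64 FPKM (q = 0.0192 in the authors' deposited table) and was the only called gene of 33 in the list of small RNA pathways, with a median of -0.08.

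**Figure D3:**
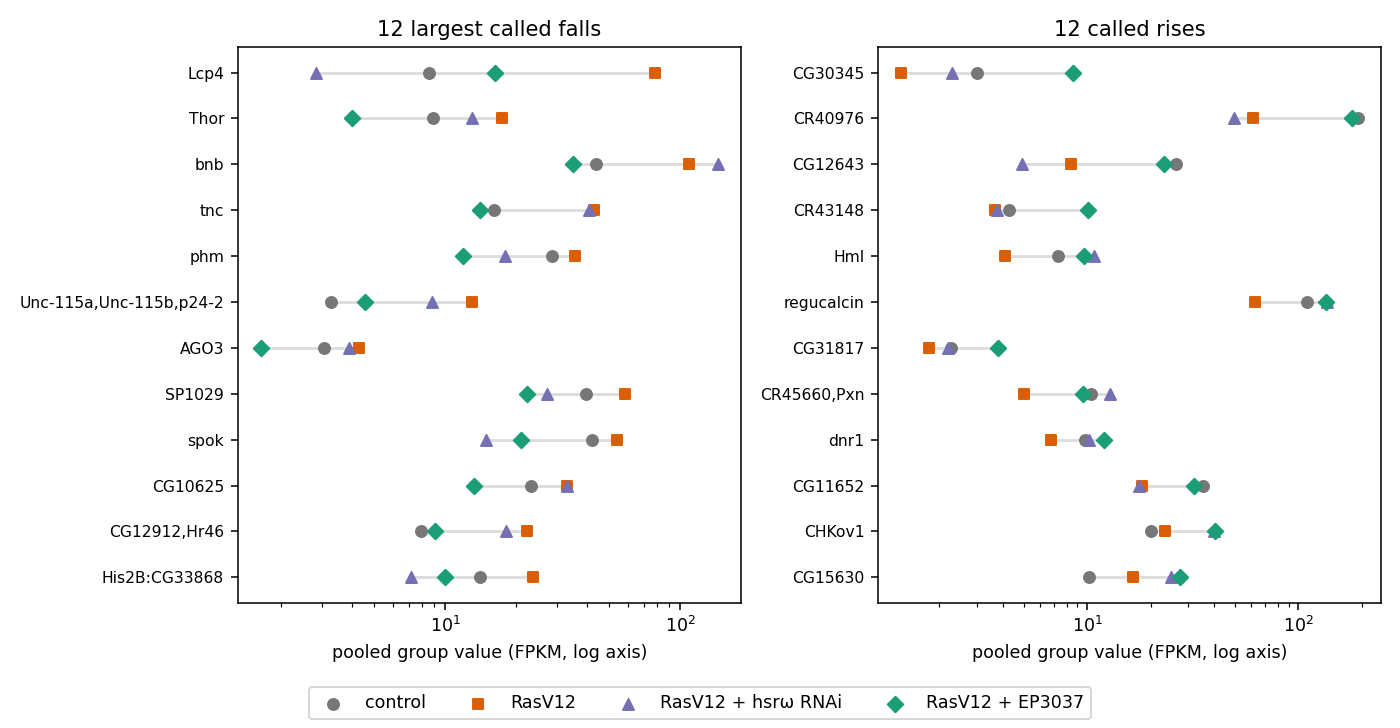
Pooled FPKM (x axis, log scale) in the 4 groups for the 12 largest called falls and the 12 called rises from Ras to EP3037, ordered by size. Lcp4 spans 2.83 to 77.9 FPKM with the Ras group highest, and tnc at 14.1 FPKM and Thor at 4.02 FPKM are lowest with EP3037.

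Chromatin regulators had 2 called falls and 0 rises of 43 genes, with 32 lower and a median log2 ratio of -0.15. Among all genes 0.608% were called lower and 59.9% were lower. Bap170, a subunit of the Brahma remodelling complex, was at 13.8 FPKM in control discs, 23.4 in Ras discs, 27.2 in RNAi discs and 12.5 with EP3037 (1.88-fold, q = 0.00789 in the authors' deposited table). Psc, a Polycomb group gene, was at 14.7, 21.7, 24.0 and 12.9 FPKM (1.69-fold, q = 0.0359 in the authors' deposited table). For Bap170 and Psc the Ras and RNAi groups were high and the control and EP3037 groups low. The remodelling ATPase gene brm was at 37.97 FPKM in Ras and 24.2 with EP3037 without being called (p = 0.00335 from the authors' deposited table). The gene ptip, an adaptor of histone methyltransferase complexes that is in no list, fell 1.81-fold to 7.11 FPKM (q = 0.00789 in the authors' deposited table).

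The lists of Ras signalling genes were read beside the 0.740% of all genes that were called. Lists of this size would hold few calls at that share. Of 41 components of the Ras and MAPK cascade 0 were called, with a median log2 ratio of -0.08. At an unadjusted p of 0.05 or less, 3 were lower and 0 higher, beside 4.60% and 1.20% of all genes. The lower ones were the exchange factor gene Sos at 14.1 FPKM in Ras and 9.91 with EP3037, the phosphatase gene PTP-ER at 9.35 and 6.64, and the Ras-binding gene spri at 25.3 and 18.4. Of 26 Ras targets and feedback genes 1 fell, with a median of -0.05. It was rno, a nuclear PHD-finger gene that restrains EGF receptor signalling in the eye, at 14.5 FPKM in control discs, 22.4 in Ras discs, 24.3 in RNAi discs and 11.9 with EP3037 (1.88-fold, q = 0.0140 in the authors' deposited table). The repressor gene cic, which Ras signalling inactivates, was at 49.8 FPKM in Ras and 31.2 with EP3037 and was not called (p = 0.00505 from the authors' deposited table). MESR4, named for suppressing a Ras phenotype when misexpressed, fell 1.74-fold from 21.0 to 12.1 FPKM (q = 0.0140 in the authors' deposited table), and PDZ-GEF, an exchange factor for the Ras relative Rap1, fell 1.81-fold from 20.6 to 11.4 FPKM (q = 0.00789 in the authors' deposited table).

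Photoreceptor fate genes had 0 Cuffdiff calls of 27, with a median of -0.06, and 4 were lower and 0 higher at an unadjusted p of 0.05 or less. The smallest p-values were those of the photoreceptor surface gene chp, at 16.4 FPKM in Ras and 11.002 with EP3037, the transcription factor gene salm, at 16.6 and 11.6, and the proneural gene ato, at 47.0 and 33.6. Among other genes of this list, ro was at 6.37 and 9.10 FPKM, elav at 48.0 and 53.4, and svp, in the row CG44037,svp, at 14.7 and 14.1, with none called. These were named after their values were seen. Cone and pigment cell genes had 0 calls of 13, with a median of 0.03 and 1 lower at that level, ct.

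Genes of omega speckle proteins and hnRNPs had 0 calls of 34, with a median log2 ratio of -0.14. Of the 34, 24 were lower, beside 59.9% of all genes. At an unadjusted p of 0.05 or less 2 were lower, beside 4.60% of all genes. These were the hnRNP genes glo and sm, which were at 59.9 and 21.9 FPKM in Ras and at 43.0 and 13.8 with EP3037 (p = 0.0225 and 0.0279 from the authors' deposited table). Hrb87F, the best-studied hnRNP of these speckles, was at 119.8 FPKM in Ras and 93.6 with EP3037 (p = 0.0853 from the authors' deposited table), and nonA at 31.2 and 24.1. Levels of these transcripts do not report where the proteins were.

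**Figure D4:**
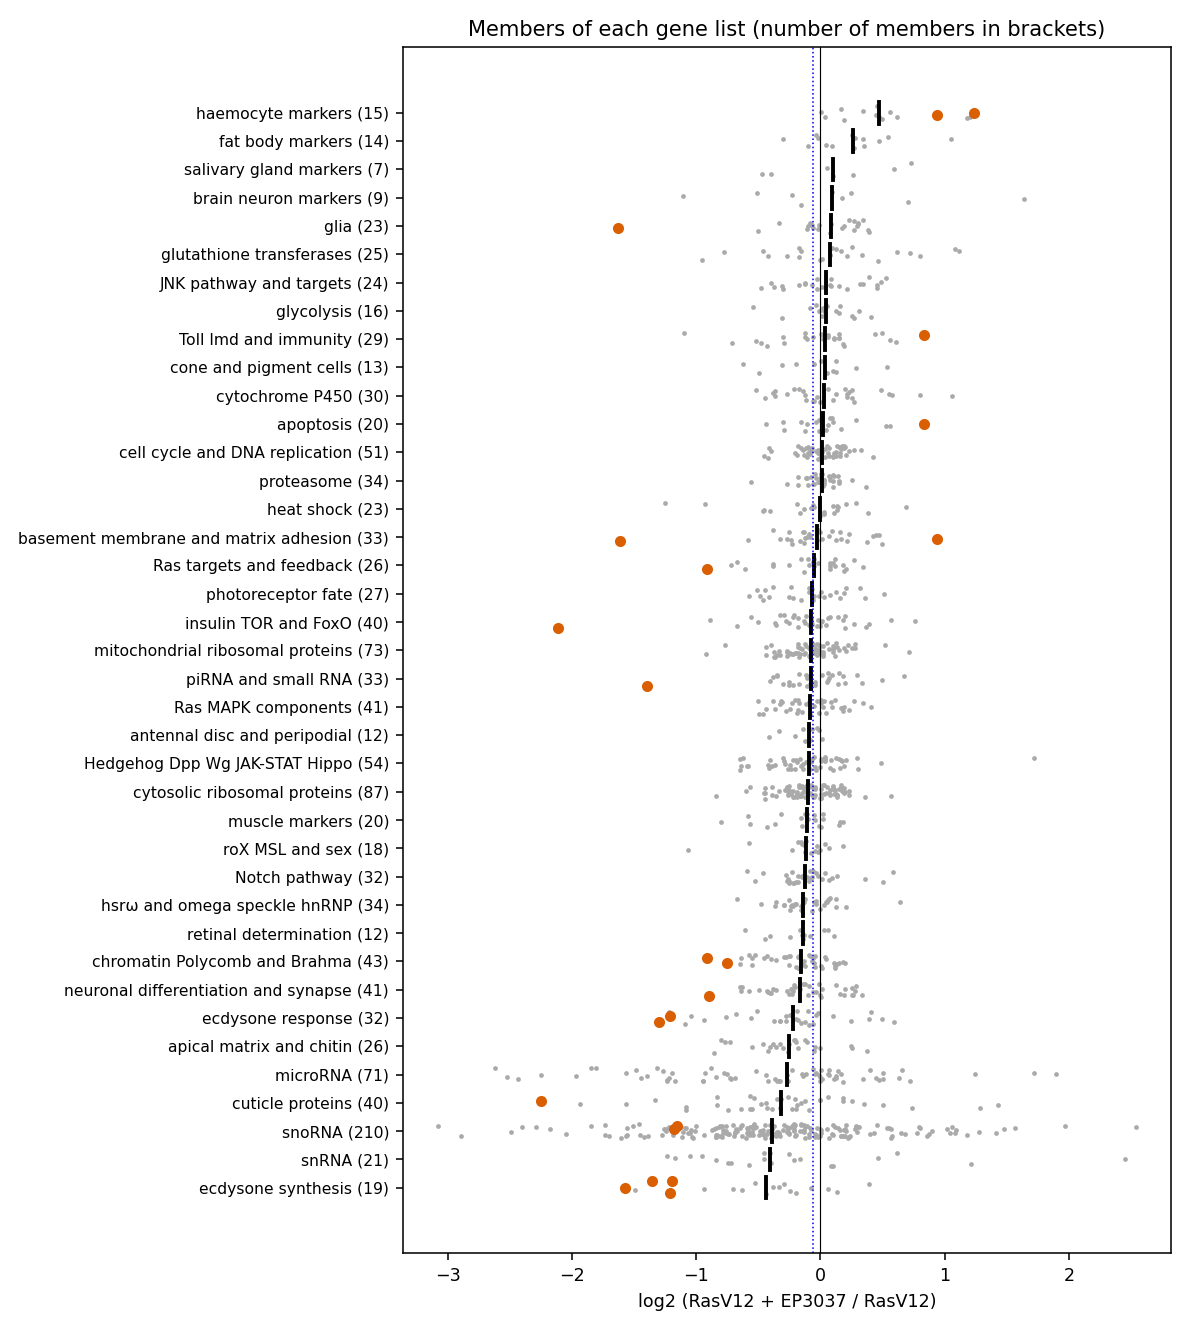
Log2 ratio of the EP3037 group over the Ras group (x axis) for the members of 39 gene lists with 6 or more members, with called genes in orange, black bars for list medians and a dotted line at the median of all genes. The ecdysone synthesis median lies lowest at -0.44, and the haemocyte median highest at 0.47.

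The remaining called falls were in genes of varied roles. Map205, a microtubule-associated protein gene, was at 65.7 FPKM in control discs, 82.2 in Ras discs, 88.4 in RNAi discs and 34.6 with EP3037, and fell 2.37-fold. The serpin gene Spn43Aa fell 2.25-fold, Sec61gamma, a subunit of the translocon, 1.96-fold, the apical spectrin gene kst 1.98-fold, and GNBP3, a receptor for fungal glucans, 1.94-fold from 52.9 to 27.2 FPKM. Smaller falls were in cu at 1.87-fold, the sodium leak channel gene na at 1.81-fold, the kinase gene Wnk at 1.80-fold, the deubiquitinase gene puf and the Z-disc gene zormin at 1.79-fold and 1.78-fold, the zinc-finger gene disco at 1.74-fold, mas, an inactive serine protease homologue, at 1.72-fold, and the ataxin gene Atx2 at 1.69-fold. SP1029 fell 2.60-fold, GV1 2.11-fold and dikar 1.85-fold. The row Unc-115a,Unc-115b,p24-2 fell 2.86-fold. CG10625, CG14814, CG6026, CG16786, CG9331, CG8677, CG1273, CG9782, CG6923, CG18600, CG32447, CG5098, CG43366, CG16711 and CG1815, whose symbols give no role, fell between 1.67-fold and 2.47-fold. The q-values of the genes in this paragraph were between 0.00789 and 0.0438 in the authors' deposited table, except for na at 0.0469.

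Several called rows are short or repeated RNAs. The noncoding CR40963 (chromosome X, 23279727 to 23279924) was at 1091 FPKM in control discs, 2258 in Ras discs, 2996 in RNAi discs and 985 with EP3037, and fell 2.29-fold. CR40976 (chromosome X, 23283692 to 23284036), which lies near it and moved the opposite way, was at 193, 61.1, 49.7 and 179.8 FPKM and rose 2.94-fold. The q-value of CR40963 and CR40976 was 0.00789 in the authors' deposited table. One U3 snoRNA row, snoRNA:U3:9B, was at 404, 1116, 423 and 492 FPKM and fell 2.27-fold, and the row CG13900,CR45184,snoRNA:Me5.8S-G74, which overlaps 8 others, fell 2.23-fold. These were the called rows of 210 snoRNA rows, which had a median of -0.39, with 154 lower. His2B:CG33868, one of many near-identical histone copies and so uncertain, fell 2.38-fold and was the only called row of 3. Of 21 snRNA rows 0 were called by Cuffdiff, with a median of -0.40 and 4 lower at an unadjusted p of 0.05 or less. Of 71 microRNA rows 0 were called, with a median of -0.27 (-0.74 over the 50 with an annotated transcript) and 1 higher at that level. That higher row was kuz,mir-2489, at 49.3 FPKM in Ras and 69.9 with EP3037. It also holds the Notch pathway gene kuz and is the higher row of the Notch list too, so its level need not be that of the microRNA. The snoRNA log2 ratios ran from -3.08 to 2.54, a wider span than in any other list in the plot of gene lists.

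Among the rises, CG30345 (chromosome 2R, 9148689 to 9151892, plus strand) was the largest, at 2.999 FPKM in control discs, 1.32 in Ras discs, 2.30 in RNAi discs and 8.60 with EP3037, a rise of 6.53-fold. CG12643 was at 26.3, 8.42, 4.91 and 23.2 FPKM and rose 2.76-fold, and the noncoding CR43148 was at 4.29, 3.67, 3.73 and 10.1 FPKM and rose 2.75-fold. CG12643 was thus low in the Ras and RNAi groups, while CG30345 and CR43148 were highest with EP3037. The q-value of these 3 genes was 0.00789 in the authors' deposited table. The calcium-binding protein gene regucalcin rose 2.19-fold from 62.3 to 136 FPKM, and dnr1, a RING-domain inhibitor of the caspase Dredd and so of the Imd immune pathway, rose 1.78-fold from 6.75 to 12.0 FPKM. CG31817, CG11652, CHKov1 and CG15630 rose between 1.68-fold and 2.12-fold. In this group of 6 rises the q-values were between 0.00789 and 0.0438 in the authors' deposited table. As the only call, dnr1 stood for 20 apoptosis genes, with a median of 0.02, and for 29 Toll and Imd genes, with a median of 0.03.

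Haemocyte genes stood higher with EP3037, and 2 of them rose. Hml, the clotting factor hemolectin, was at 7.29 FPKM in control discs, 4.10 in Ras discs, 10.8 in RNAi discs and 9.67 with EP3037, and rose 2.36-fold (q = 0.00789 in the authors' deposited table). The row CR45660,Pxn, which holds peroxidasin, a matrix-crosslinking enzyme made by haemocytes, was at 10.4, 5.00, 12.8 and 9.56 FPKM and rose 1.91-fold (q = 0.0469 in the authors' deposited table). For both, the Ras group was the lowest of the 4. The phagocytosis receptor gene eater was at 1.41 FPKM in Ras and 3.18 with EP3037 (p = 0.000850 from the authors' deposited table, not called), and NimB4 at 1.52 and 3.51 (p = 0.00770 from the authors' deposited table, not called). Of 15 haemocyte markers 2 rose and 0 fell, and 0 of the 15 were lower, while the other 5 marker rows were under 1 FPKM in a group and are not among the 15. Their median log2 ratio was 0.47 beside -0.06 over all genes. At an unadjusted p of 0.05 or less, 6 were higher, against 1.20% of all genes. All 20 marker rows summed to 275 FPKM in control discs, 239.7 in Ras, 364 in the RNAi group and 289.9 with EP3037, and none was at 0. Haemocytes attach to discs and were not removed by any sort that the labels describe, and the part of their number in this result was not tested.

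Among markers of the gut, a few proteases stood far higher with EP3037. The midgut list has 44 rows, 29 of serine proteases of the Jonah, trypsin and Ser groups and 15 of amylases, maltases and Npc2 sterol carriers, and only 3 of the 44 reached 1 FPKM in both groups. Those 3 had a median log2 ratio of -0.01 and 0 calls. Summed over the 44 rows, the level was 15.2 FPKM in control discs, 16.2 in Ras discs, 20.8 in RNAi discs and 113 with EP3037, and 10, 14, 7 and 4 rows were at 0. The rows Jon25Bi, Jon25Bii, Jon65Aiii and Jon65Aiv, singled out after their values were seen, made up 0.909 FPKM of the sum in Ras and 92.0 with EP3037, while the other 40 rows summed to 15.3 and 20.9 FPKM. Jon65Aiv was at 0.106, 0.369, 2.24 and 27.0 FPKM and yip7, a neighbouring serine protease gene of the same family, at 0.295, 0.399, 1.26 and 24.5 FPKM, and both were called higher (q = 0.0240 and 0.0192 in the authors' deposited table). Among the other 40 rows, the trypsin genes alphaTry and epsilonTry were listed at 0 in Ras and were also called higher. With EP3037 they were at 1.53 and 0.647 FPKM (q = 0.00789 and 0.0140 in the authors' deposited table). No row of the list was called lower. Jon65Aiii, named after its values were seen, went from 0.224 to 35.6 FPKM and was not called (p = 0.0102 from the authors' deposited table). Neither Jon25Bi nor Jon25Bii was called, at 16.7 and 12.7 FPKM with EP3037 (p = 0.0206 and 0.286 from the authors' deposited table). With 1 pooled value per group, it cannot be seen whether all 3 samples carried these transcripts. Jonah genes are close copies, so the level of each is uncertain. The part of gut tissue in the preparations in the other results was not tested.

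Outside the 9052 genes, rows under 1 FPKM in a group held 20 further calls of 2010 tested rows (0.995%), 8 higher and 12 lower. Of these, 5 were listed at 0 in Ras and 7 at 0 with EP3037. The row Gr64a,Gr64b,Gr64c,Gr64d,Gr64e, a cluster of sugar receptor genes, was at 5.26 FPKM in control discs, 6.49 in Ras discs, 6.541 in RNAi discs and 0.418 with EP3037, a fall of 15.5-fold (q = 0.0140 in the authors' deposited table). CG18294 was at 4.28, 5.77 and 5.03 FPKM in the first 3 groups and listed at 0 with EP3037. For the Gr64 row and CG18294 the EP3037 group alone was low. CG11370 was at 1.99, 5.47, 2.52 and 0.572 FPKM and fell 9.56-fold. CG18294 and CG11370 had a q of 0.00789 in the authors' deposited table.

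The other tissue and pathway lists had 0 calls each. With 0.740% of all genes called, lists of their size would hold few or none at that share. Fat body markers had 0 calls of 14 with a median of 0.26, and the larval serum protein gene Lsp1alpha was at 1.91 FPKM in Ras and 3.97 with EP3037 (p = 0.00205 from the authors' deposited table). The marker Lsd-1 went the other way, from 3.49 to 0.980 FPKM (p = 0.011 from the authors' deposited table, not called). It was under 1 FPKM with EP3037 and so is not among the 14. Salivary gland markers had 0 calls of 7 and a median of 0.10, muscle markers 0 of 20 and -0.11, and brain neuron markers 0 of 9 and 0.09. At an unadjusted p of 0.05 or less, 1 fat body and 1 brain marker were higher and 1 salivary gland and 2 muscle markers lower. Genes of the JNK pathway had 0 calls of 24 with a median of 0.05, but 3 were higher at an unadjusted p of 0.05 or less and 0 lower. These were kay (Fos), Gadd45 and puc, the pathway's feedback phosphatase, the last at 21.8 FPKM in Ras and 29.9 with EP3037. Heat shock genes had 0 calls of 23 and a median of -0.01, with 1 higher and 3 lower at that level. The locus Hsp22,Hsp67Bb was at 32.2 and 13.6 FPKM, and Hsp70Bb, one of several near-identical copies and uncertain, at 19.4 and 31.3, with neither called.

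The Notch list had 0 calls of 32 with a median of -0.13, and the joint list of Hedgehog, Dpp, Wg, JAK-STAT and Hippo genes 0 of 54 with -0.10. Cell cycle genes had 0 of 51 with 0.02 and glycolysis genes 0 of 16 with 0.04. Dosage compensation and sex genes had 0 of 18 with -0.12. In that list roX2, an RNA component of the complex that raises X transcription in males, was at 91.5 FPKM in control discs, 517 in Ras discs, 175 in RNAi discs and 247 with EP3037 without being called (p = 0.000800 from the authors' deposited table). The other RNA of that complex, roX1, did not follow it. Its levels in these groups were 137, 314, 322 and 297 FPKM (p = 0.837 from the authors' deposited table). Cytosolic ribosomal protein genes had 0 of 87 with -0.10, mitochondrial ones 0 of 73 with -0.08, proteasome genes 0 of 34 with 0.01, cytochromes P450 0 of 30 with 0.03, and glutathione transferases 0 of 25 with 0.08. At an unadjusted p of 0.05 or less, the joint signalling list had 7 lower genes and 0 higher, Notch 3 lower and 1 higher, and mitochondrial ribosomal proteins 1 lower and 2 higher. The cell cycle, dosage compensation and cytosolic ribosomal lists had 1 lower each, cytochromes P450 1 higher, glutathione transferases 1 of each, and glycolysis and proteasome genes 0.

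Called falls lay mostly in genes with long transcripts. Their median longest annotated transcript was 4784 nt over the 51 with an annotation, beside 1865 nt over 8545 annotated genes and 2000.5 nt over 10 called rises. When the annotated genes were split by length into 10 bins of near equal size, 21 of the called falls were in the bin of longest transcripts (5187 to 71382 nt) and 2 in the bin of shortest ones (30 to 622 nt). The median log2 ratio was -0.22 in the shortest bin, 0.01 in the sixth and -0.20 in the longest, so that both ends stood below the middle. Ratios of 2-fold or lower behaved in another way, with 82 genes in the shortest bin and 7 in the longest. Among protein-coding genes alone the longest bin also had a median of -0.20, and 20 called falls. Of the genes described above, tnc at 10374 nt, rno at 11796 nt and kst at 13783 nt are long, whereas Lcp4, Thor and phm have transcripts of 792, 755 and 2203 nt. With a running median over transcript length subtracted, an alternative chosen after the data were seen, 83 of the annotated genes were 2-fold or more lower and 108 higher, beside 136 lower and 81 higher among the same genes before. Over annotated members alone, the subtraction moved the median log2 ratio of 27 ecdysone response genes from -0.20 to -0.083, of 38 chromatin regulators from -0.16 to -0.052 and of 179 snoRNA rows from -0.40 to -0.094. Over 18 ecdysone synthesis genes it went from -0.48 to -0.39, over 38 cuticle proteins from -0.32 to -0.24 and over 12 haemocyte markers from 0.48 to 0.60. The calls are the authors' and cannot be recomputed with this trend, so the part of transcript length in them was not tested.

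**Figure D5:**
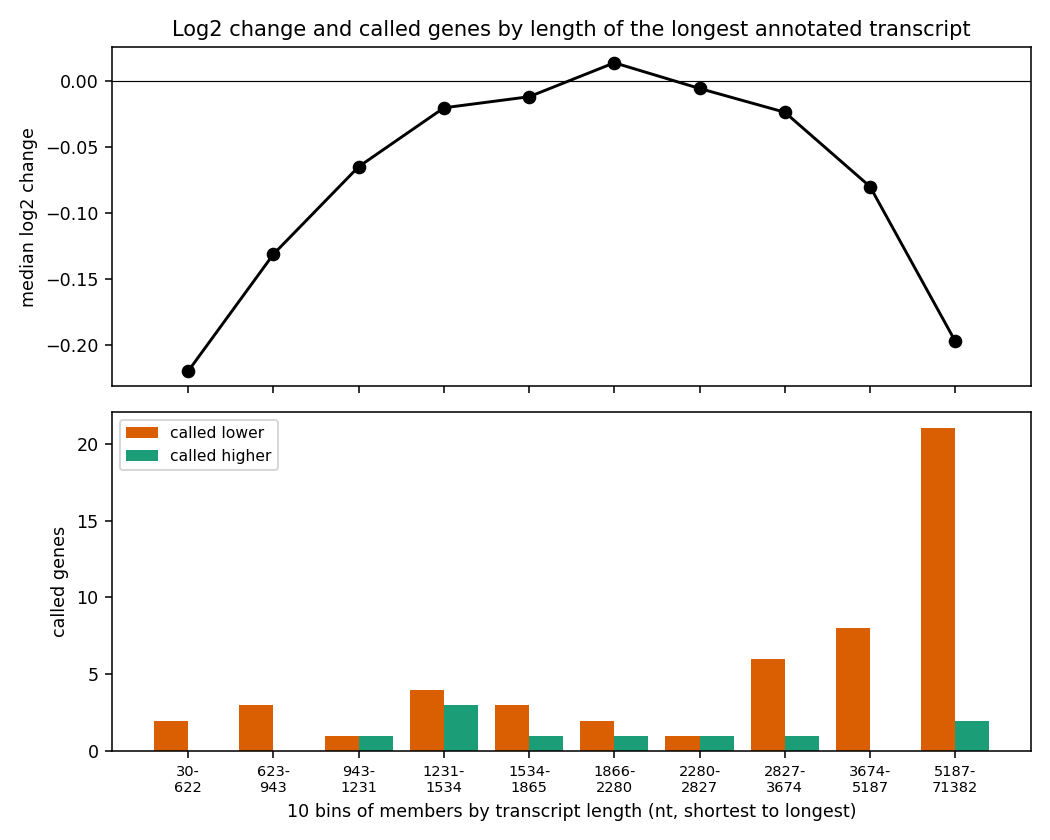
Median log2 ratio (top) and number of called genes (bottom) in 10 bins of 8545 annotated genes by the length of the longest transcript, from 30 to 622 nt up to 5187 to 71382 nt. The medians are lowest at both ends, and 21 called falls are in the longest bin.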

How the data were processed

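Total RNA, depleted of ribosomal RNA, was sequenced with a stranded kit as 50 nt read pairs, per the labels' protocols. Cuffdiff 2.1.1, with TopHat, Bowtie, Cufflinks and the genome build dm6, is listed per the submitters' processing notes. The annotation, the filters and the use of strand in counting were not given in the sources used here, so reads of overlapping genes, antisense genes and close copies cannot be told apart. The authors deposited FPKM, 1 pooled value per gene and group, with a p-value and a q-value per gene, per the file headers. Log2 ratios were computed from these FPKM values without a pseudocount. No test over samples was run, so the deposited q at or under 0.05 was the call. The same q steps, such as 0.00789, recurred in every deposited comparison, so the adjustment appears to have covered them together. Calls can therefore depend on the other comparisons. Adjusted over this comparison alone, 8 genes were called higher and 45 lower.

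Members and lists were chosen with earlier results of these data known. The genes named were those of the genotypes, rows within 50000 nt of Hsromega, the 12 largest called rises and falls, up to 4 genes of each of 41 lists by smallest p, all other called members, and up to 6 called rows under 1 FPKM. Other genes named in the tests of markers or lists were chosen after their values were seen. The lists covered the pathways, families, fates and tissues given in the results; a gene can be in several. Of 15267 single-gene rows 14951 were matched to Ensembl release 115, which gave strand, biotype and transcript length. Rows of several genes, 637 in all, keep all their names. Positions come from the deposited tables (dm6) and count from 1. The code was tested on simulated data. Python 3.11.15, pandas 2.3.3 and numpy 2.4.6 were used. The alternatives were other thresholds, filters, scalings and length trends.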

Additional observations from a re-analysis of the deposited data

How the results depend on the processing

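No paired analysis was possible because the tables hold 1 pooled value per group and no column carries a replicate, and for the same reason no replicate could be left out. From 12 genes called higher and 55 lower, a q at or under 0.01 left 6 and 28, an unadjusted p at or under 0.05 gave 109 and 416, and dropping the FPKM limit gave 20 higher. Adjusting the deposited p-values over this comparison alone left 8 higher and 45 lower, without Psc and the row CR45660,Pxn. From 85 genes 2-fold higher and 151 lower, a pseudocount of 1 left 38 higher, no limit gave 429 and 344, and a limit of 5 FPKM left 18 and 89. Subtracting the trend with transcript length over annotated genes, chosen after the data were seen, left 83 lower and gave 108 higher, so that the excess turned from lower to higher; the same annotated genes held 136 and 81 before the subtraction, and the microRNA median over annotated rows was -0.74. After subtracting the trend with genomic span, list medians moved to 0.018 for Ras MAPK components, -0.013 for Notch, -0.033 and -0.014 for cytosolic and mitochondrial ribosomal proteins, and 0.016 for antennal and peripodial markers. With the transcript-length trend, over annotated members, they moved to 0.017 for Ras MAPK, 0.15 for cone and pigment cells, -0.083 for ecdysone response, 0.089 for neuronal, -0.031 for Notch, -0.0099 for dosage compensation and sex, -0.052 for chromatin, 0.011 and 0.031 for cytosolic and mitochondrial ribosomal proteins, -0.094 for snoRNA and -0.0096 for antennal and peripodial markers. The cause of these moves was not tested. Of 174 named genes recomputed with a pseudocount of 1 or the genomic-span trend subtracted, 0 called ones changed direction. A pseudocount cannot turn a ratio, and called log2 ratios lay at -0.74 or below or 0.74 or above. That count therefore says little about robustness. Depth is unknown, so what it limits cannot be given.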

Other observations

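CR41609 (chromosome X, 23261579 to 23262529) had no completed Cuffdiff test and belongs to no comparison above. Its status was HIDATA, which Cuffdiff gives to loci with too many fragments. It was listed at 3254 FPKM in the control, at 0 in the Ras and hsrω RNAi groups, and at 3203 FPKM in the EP3037 group. CR41602, the other row with this status, was listed at 0 in all 4 groups. A listed 0 in such a row therefore cannot be read as absence of the RNA.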
